A study of Mus musculus with 2 samples.

Results

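Hypoxic neutrophils were defined here as tumour neutrophils that carried transcripts of 4 genes known to rise when oxygen is low. They numbered 1182 of the 7734 cells that passed the quality filter, 532 of 3364 in the vehicle library and 650 of 4370 in the Momordicine-I library. A member was a cell in which S100a8, S100a9, G0s2, Csf3r and Retnlg together made up at least 2% of the unique molecular identifiers (UMIs, 1 for each captured transcript). It also held at least 4 UMIs of Ero1l, Bnip3, Hk2 and Egln3 summed. Cells with signs of another neutrophil state or cell type were left out: 2 or more UMIs of Ly6g and Mmp8, any of Siglecf, 3 or more of Saa3, 5 or more of Ifit1, Ifit3 and Rsad2, 3 or more of C1qa, C1qb and C1qc, or any of Cd3e or Cd79a. These 21 genes chose the members, so their levels are descriptions and support nothing.

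The series measured single-cell RNA of CD45+ cells, the blood-derived cells, sorted from tumours of MOC2, a mouse oral cancer cell line. The cancer cells had been placed under the skin of female C57BL/6 mice aged 6 to 7 weeks, and dosing began once tumours reached 80 to 100 mm3. The vehicle group received DMSO in a Captisol solution, and the other group received Momordicine-I at 30 mg/kg in the same solvent, injected into the abdomen every day. The arms had 10 mice each, but each library pooled the tumours of only 3 mice, sorted for CD45 and for exclusion of propidium iodide, a dye that enters dead cells. With 1 library per group no difference between the groups can be tested, and 95% intervals cover counting error only, not mice or library preparation. Intervals of gene levels and their ratios treat every UMI as independent, so they also leave out variation among cells.

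Neutrophils are short-lived phagocytes that draw most of their energy from glycolysis, the breakdown of glucose to lactate in the cytosol. When oxygen falls, the prolyl hydroxylases (EGLN proteins) no longer mark the hypoxia-inducible factors (HIF) for destruction, and HIF raises genes of glucose uptake, glycolysis, mitochondrial restraint and vessel growth. Of the gate genes, Ero1l forms disulfide bonds in the endoplasmic reticulum and Bnip3 promotes removal of mitochondria. Hk2 is the hexokinase that traps glucose, and Egln3 is an oxygen-sensing prolyl hydroxylase that HIF itself raises.

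The sequences below show, for the 4 gate genes and for 3 genes outside the gate, where the letters bound by HIF occur ahead of the transcription start. Ldha and Prok2 are shown as genes with many matches and F3 as a gene with none. ACGTG and GCGTG were searched on both strands, matches could overlap, and capitals mark a match on either strand. The stretches come from RefSeq promoters of GRCm38.p6, which run from 250 bases before to 50 bases after each start, and each is written 5′ to 3′ on the gene's own strand. Ero1l is listed there as Ero1a.
Ero1l, chr14:45318616-45318715: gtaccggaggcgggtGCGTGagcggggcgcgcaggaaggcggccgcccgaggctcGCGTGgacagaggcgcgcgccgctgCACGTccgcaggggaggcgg
Bnip3, chr7:138909522-138909638: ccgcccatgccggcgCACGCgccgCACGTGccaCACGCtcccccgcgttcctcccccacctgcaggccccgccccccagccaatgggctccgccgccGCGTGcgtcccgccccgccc
Hk2, chr6:82774487-82774695: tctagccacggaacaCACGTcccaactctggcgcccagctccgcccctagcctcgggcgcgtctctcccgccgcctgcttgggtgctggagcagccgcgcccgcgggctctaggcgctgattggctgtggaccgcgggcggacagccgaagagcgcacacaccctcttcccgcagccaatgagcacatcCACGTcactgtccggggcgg
Egln3, chr12:54204084-54204118: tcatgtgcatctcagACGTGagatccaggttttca
Ldha, chr7:46845644-46845789: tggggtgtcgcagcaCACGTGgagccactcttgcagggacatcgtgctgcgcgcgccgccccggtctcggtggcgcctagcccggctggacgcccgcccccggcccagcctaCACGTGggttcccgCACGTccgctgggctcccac
Prok2, chr6:99726443-99726571: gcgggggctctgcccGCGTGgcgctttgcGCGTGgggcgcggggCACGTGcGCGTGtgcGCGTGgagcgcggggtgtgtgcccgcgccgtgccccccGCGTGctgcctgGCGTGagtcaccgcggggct
F3, chr3:121723477-121723536: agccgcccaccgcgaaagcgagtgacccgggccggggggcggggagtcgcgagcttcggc

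Ldha, lactate dehydrogenase A, and F3, tissue factor, lie on the plus strand and the other 5 genes on the minus strand. In the GENCODE annotation the Bnip3, Hk2, Egln3 and F3 stretches lie outside any gene. The Ero1l stretch overlaps an exon of a longer Ero1l transcript, and the Ldha stretch is intronic in a longer Ldha transcript. The Prok2 stretch lies in an intron of Gm26748 on the opposite strand. The 250 bases before the F3 start hold no match, and the 60 nearest to it are shown. In the same 250 bases, Fnip2 and 1 of 2 Hilpda promoters held no match either, and the second Ldha promoter held 1. The 50 bases after the start were not searched for these statements. A match describes the letters only and shows no binding.

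The cells fell along a continuous range of hypoxia-gene UMIs rather than into separate groups. Among neutrophils that passed every other gate, 97 of 809 in the vehicle library and 176 of 1125 in the Momordicine-I library held none of the 4 transcripts. A further 303 and 330 cells held 12 or more. Just outside the threshold, cells with exactly 3 UMIs numbered 35 and 61, and their 4 genes summed to 629 and 624 counts per 1000000 UMIs of the cells (CPM). Just inside it, cells with exactly 4 UMIs numbered 40 and 56, at 833 and 1051 CPM. The members had a median of 13 hypoxia-gene UMIs under vehicle and 12 under Momordicine-I, and 41.7% and 42.9% of them held all 4 genes.

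**Figure D1:**
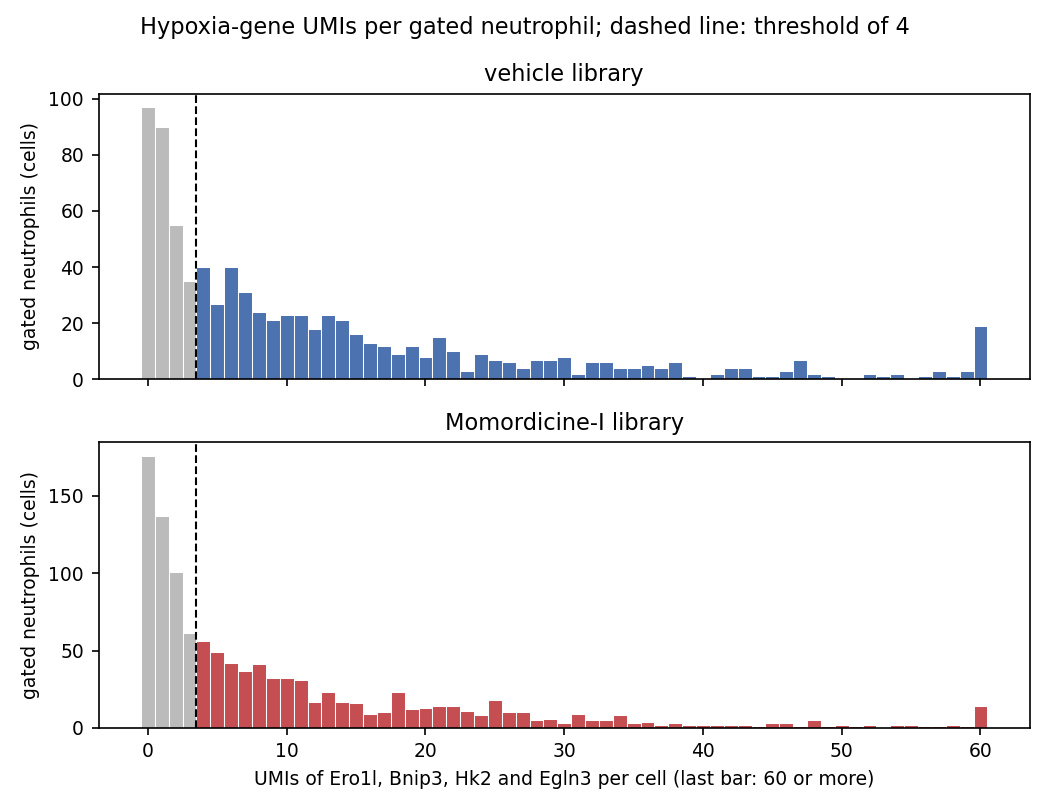
Number of gated neutrophils (y axis) against UMIs of Ero1l, Bnip3, Hk2 and Egln3 per cell (x axis, last bar 60 or more) in the vehicle and Momordicine-I library, members coloured, other cells grey, with the threshold of 4 as a dashed line. Counts fall gradually across the threshold, from 97 and 176 cells with no UMI, with no gap between members and other cells.

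Depth moved with membership, and its part in the levels was not tested. Hypoxic neutrophils had a median of 5245 UMIs and 1325 genes per cell in the vehicle library and 4718.5 UMIs and 1294 genes in the Momordicine-I library. The 277 and 475 other gated neutrophils, with 0 to 3 hypoxia-gene UMIs, had medians of 3988 and 3736 UMIs. The median hypoxia-gene level per cell was 2540 and 2526 CPM in the hypoxic cells and 243 and 249 CPM in the others. The deposited libraries held 3642 and 4693 barcodes with 33998491 and 41804810 UMIs, and no hypoxic neutrophil barcode occurred in both.

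The label was set beside genes that the rule did not use. Across 19 other neutrophil genes, the median hypoxic neutrophil had 5.98% of its UMIs in those genes under vehicle and 5.78% under Momordicine-I. In cells with 2 or more UMIs of Cd79a, a B cell receptor gene, the medians were 0.194% and 0.220%. Those cells were also required to have under 2% of UMIs in the neutrophil genes of the rule and no Cd3e UMI. Part of this gap was therefore set by the choice of cells. Markers of other cell types were low or, for some lists, higher than in the other gated neutrophils. Summed over each list, dendritic cell markers were at 927 and 360 CPM in hypoxic cells and at 263 and 229 CPM in the others. By UMIs that list was mostly class II genes. Of these, H2-Aa, H2-Ab1, H2-Eb1 and Cd74 alone summed to 915 and 357 CPM in hypoxic cells. In the others they summed to 251 and 203 CPM. Monocyte markers were at 138 and 160 CPM against 101 and 84.96 CPM, and B cell markers at 241 and 31.4 CPM against 363 and 34.6 CPM. In the hypoxic cells, T and NK cell markers reached 40.8 and 52.2 CPM, and MOC2 carcinoma or epithelial markers 67.6 and 71.1 CPM with Krt5 at 0. Fibroblast and endothelial markers reached 64.4 and 74.4 CPM, with Cdh5 and Kdr at 0. Macrophage markers, at 815 and 996 CPM in hypoxic cells, were at 819 and 840 CPM in the other gated neutrophils. The label of hypoxia rests on transcripts, and oxygen itself was not measured.

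The 4 gate genes are given as a description of the choice. Ero1l was at 784 CPM in hypoxic against 81.5 CPM in other gated neutrophils of the vehicle library, and at 889 against 86.7 CPM in the Momordicine-I library. Hk2 was at 1160 against 50.8 CPM and at 1100 against 69.7 CPM. Bnip3 was at 429 against 64.2 CPM and at 454 against 71.4 CPM, and Egln3 at 647 against 95.8 CPM and at 574 against 68.0 CPM. Expression was uneven among the members: the highest 10% of cells for each gene held 38.0% and 37.8% of Ero1l UMIs and 45.5% and 41.6% of Hk2 UMIs.

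Each gate gene was also read in cells chosen by the other 3 genes alone, with at least 3 UMIs of those. Chosen without Ero1l, 515 vehicle cells had Ero1l at 759 CPM against 202 CPM in the remaining gated neutrophils, a ratio of 3.76 (95% interval 3.28 to 4.33), and the Momordicine-I library gave 3.81 (3.43 to 4.23). The corresponding ratios were 3.38 and 3.61 for Bnip3, 3.60 and 4.70 for Hk2, and 2.32 and 2.76 for Egln3. Each of the 4 genes was above its level in the remaining cells by more than 1.5-fold when it took no part in the choice. The members were chosen with earlier results of these data known, so these ratios are descriptions as well and support nothing.

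Of the 3 markers outside the rule, Hmox1, the haem oxygenase that splits haem into iron, carbon monoxide and biliverdin, was at 622 CPM in hypoxic against 268 CPM in other gated vehicle neutrophils. The ratio was 2.32 (2.05 to 2.64), and in the Momordicine-I library 615 against 281 CPM gave 2.19 (1.98 to 2.42). Nos2, the inducible nitric oxide synthase, was at 122 against 30.7 CPM, a ratio of 3.96 (2.76 to 5.87), and at 147 against 41.3 CPM, a ratio of 3.55 (2.78 to 4.60). Fnip2, a folliculin partner in nutrient sensing, was at 115 against 72.8 CPM and at 121 against 49.3 CPM, ratios of 1.58 and 2.45. Under alternative settings its log2 ratio ran from 0.20 to 1.00 in the vehicle and from 1.09 to 1.44 in the Momordicine-I library. These values come from the contrast that the rule made and from cells of unequal depth.

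At equal depth, with each cell thinned to 2000 UMIs, Hmox1 was detected in 45.6% of hypoxic vehicle neutrophils and 46.1% of hypoxic Momordicine-I neutrophils. The shares were 27.0% and 27.3% in other gated neutrophils and 4.44% and 5.81% in Cd79a cells, which should lack the gene. Before thinning, 64.5% and 64.8% of hypoxic cells had a Hmox1 UMI. Nos2 was detected in 12.9% and 16.3% of thinned hypoxic cells, in 3.79% and 4.69% of the others, and in 1.16% of Cd79a cells of the Momordicine-I library. In the vehicle library it was seen in 0 of 225 Cd79a cells, with an exact upper bound of 1.63%. Before thinning the Nos2 shares in hypoxic cells were 20.9% and 24.2%, and the highest 10% of cells held 82.4% and 77.7% of all Nos2 UMIs. Fnip2 was detected in 17.4% of thinned hypoxic cells of either library, against 11.4% and 7.81% of the others. Thinning left out 21 and 30 hypoxic cells and 66 and 91 of the others, and median depths of the Cd79a cells were 6147 and 4937 UMIs.

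Of 20 glycolysis genes listed, 12 were higher in hypoxic than in other gated neutrophils of both libraries. A gene was compared where its mean over both cell sets was at least 50 CPM, and was called higher or lower past 1.5-fold in both libraries. Of the list, 15 genes could be compared, of which 12 were higher, 3 within 1.5-fold in at least 1 library and none lower, against 4.22% of all 2134 genes higher and 3.98% lower. The rule used that contrast, so nothing is read from these shares. The median log2 ratio of the list was 1.28 in both libraries, against -0.08 and -0.11 over all genes.

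Ldha, which turns pyruvate into lactate, was at 1252 against 369 CPM in the vehicle library, a ratio of 3.39 (3.06 to 3.78), and at 1329 against 399 CPM under Momordicine-I, a ratio of 3.33 (3.08 to 3.61). Tpi1, the triose phosphate isomerase, was at 620 against 187 CPM and at 808 against 224 CPM. Gapdh was at 2581 against 953 CPM and at 2882 against 1191 CPM, ratios of 2.71 and 2.42. Phosphofructokinase Pfkp, at the committed step, was at 536 against 181 CPM and at 482 against 151 CPM. The glucose carrier Slc2a1 was at 755 against 320 CPM and at 678 against 311 CPM. In each of these genes both hypoxic sets lay above both other sets.

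Not every glycolytic gene followed. The lactate exporter Slc16a3 was at 776 against 855 CPM in the vehicle and 921 against 872 CPM in the Momordicine-I library, within 1.5-fold in both. Its chaperone Bsg, which escorts monocarboxylate carriers to the membrane, was at 507 against 167 CPM and at 479 against 150 CPM, ratios of 3.04 and 3.19. Pgd and Taldo1, enzymes of the pentose phosphate pathway chosen after their values were seen, were lower in hypoxic cells. Pgd was at 73.6 against 117 CPM and at 70.8 against 116 CPM, and Taldo1 at 341 against 527 CPM and at 316 against 555 CPM.

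Of 32 known HIF targets listed outside the gate, 17 were higher in both libraries. A further 12 were too low to compare, 2 were not called and 1 was lower, beside 4.22% of all 2134 genes higher and 3.98% lower. The median log2 ratios were 1.01 and 1.07. Higd1a, a small protein of the inner mitochondrial membrane, was at 403 against 67.1 CPM, a ratio of 6.01 (4.73 to 7.76), and at 416 against 86.1 CPM, a ratio of 4.83 (4.09 to 5.74). Fam162a, a mitochondrial protein tied to cell death under low oxygen, was at 221 against 52.7 CPM and at 293 against 55.5 CPM, ratios of 4.20 and 5.29. Hilpda, which blocks lipid breakdown at lipid droplets, was at 1799 against 530 CPM and at 1723 against 537 CPM. The droplet coat gene Plin2 was at 984 against 600 CPM and at 942 against 595 CPM.

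The lower target was Pfkfb4, which controls the level of fructose 2,6-bisphosphate. It was at 43.2 CPM in hypoxic and 90.1 CPM in other gated vehicle neutrophils, a ratio of 0.48 (0.37 to 0.63), and at 52.8 against 81.6 CPM under Momordicine-I, a ratio of 0.65 (0.52 to 0.81). Its paralogue Pfkfb3, with the same kind of activity, went the other way, at 431 against 171 CPM and 518 against 261 CPM. Among HIF regulators, Hif1a itself was at 729 against 472 CPM and at 671 against 527 CPM, past 1.5-fold in the vehicle library only, with no test of that difference. Its partner Arnt was at 91.2 against 118 CPM and at 92.4 against 115 CPM. Egln1, the main prolyl hydroxylase, was at 54.8 against 19.2 CPM and at 72.2 against 24.9 CPM, below the level set for a comparison.

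Of 8 compared genes of vessel growth and matrix, Vegfa and Prok2 were higher in both libraries and none was lower in both. Over all 2134 genes the shares were 4.22% higher and 3.98% lower, and nothing is read from the count. Vegfa, the vascular growth factor, was at 413 against 253 CPM and at 379 against 200 CPM, ratios of 1.63 and 1.90. Prok2, a secreted ligand that attracts neutrophils and acts on vessels, was at 140 against 45.0 CPM and at 121 against 18.1 CPM, and was found in 12.97% and 10.2% of hypoxic cells. Thbs1, thrombospondin 1, was at 2338 against 1438 CPM and at 1523 against 1289 CPM, inside 1.5-fold in the latter. F3, F10, Impa2 and Npepps were named as genes whose intervals lay farthest above 1. F3, tissue factor, which starts clotting, was at 186 against 42.2 CPM, a ratio of 4.40 (3.24 to 6.12), and at 140 against 31.7 CPM, a ratio of 4.42 (3.35 to 5.94). F10, clotting factor X, was at 422 against 153 CPM and at 380 against 143 CPM. Impa2, an inositol monophosphatase, was at 105 against 22.0 CPM and at 117 against 18.1 CPM, and Npepps, a cytosolic aminopeptidase, at 362 against 127 CPM and at 359 against 121 CPM.

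**Figure D2:**
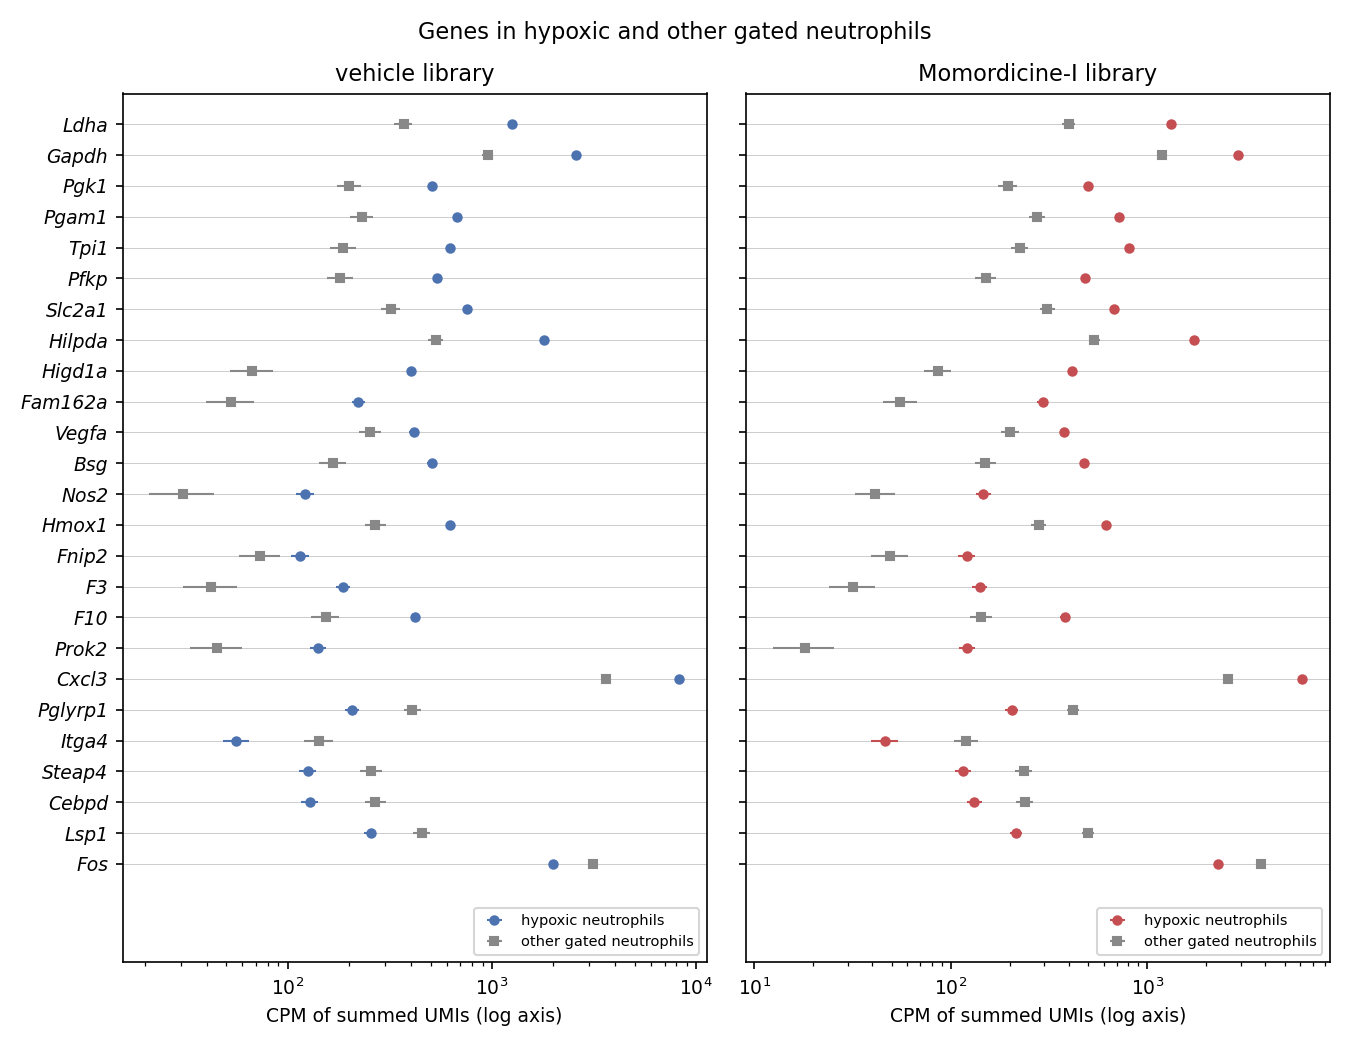
Level of named genes in CPM on a log axis (x axis) for hypoxic neutrophils (coloured circles) and other gated neutrophils (grey squares) in the vehicle (left) and Momordicine-I (right) library, with 95% counting intervals as bars. Genes from Ldha to Cxcl3 lie to the right in the hypoxic cells and genes from Pglyrp1 to Fos to the left, in both libraries.

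Nos2 was the only 1 of 4 compared genes of nitric oxide and arginine use that was higher in both libraries. Beside this list and the next ones, 4.22% of all 2134 genes were higher and 3.98% lower, and nothing is read from the counts. Arg1, arginase of the cytosol, was at 34.6 against 9.58 CPM and at 71.9 against 20.4 CPM, too low to compare, and was seen in 7.71% and 7.38% of hypoxic cells. Of 8 genes of haem, iron and NRF2 response, only Hmox1 was higher in both. The ferritin heavy chain Fth1 was at 39667 against 27354 CPM and at 39085 against 26290 CPM, ratios of 1.45 and 1.49, just inside 1.5-fold. The cystine carrier Slc7a11 was at 1278 against 1291 CPM and at 1219 against 1041 CPM. None of 11 genes of the integrated stress and unfolded protein response passed 1.5-fold in both libraries, among them the chaperone Hspa5 at 1668 against 1576 CPM and at 1571 against 1352 CPM.

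Of 7 chemokines compared, Cxcl3 and Ccl9 were higher in both libraries, beside 4.22% of all 2134 genes higher and 3.98% lower. Cxcl3, a ligand of CXCR2, was at 8238 against 3619 CPM and at 6143 against 2582 CPM, ratios of 2.28 and 2.38. Ccl9 was at 132 against 44.1 CPM and at 115 against 57.8 CPM. Cxcl2, from the same family as Cxcl3, was at 40136 against 31936 CPM and at 37588 against 26586 CPM, within 1.5-fold. The interleukin Il1b was at 11468 against 13600 CPM and at 13680 against 16224 CPM, also within 1.5-fold. Cd274, which encodes the checkpoint ligand PD-L1, was at 720 against 523 CPM and at 660 against 388 CPM, past 1.5-fold in the Momordicine-I library only. The difference between the libraries was not tested.

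None of 19 neutrophil identity genes, 17 genes of late or tumour neutrophils, 21 nuclear genes of oxidative phosphorylation, 10 mitochondrially encoded genes or 20 ribosomal protein genes passed 1.5-fold in both libraries. Over all 2134 genes only 4.22% were higher and 3.98% lower, so no call in lists of this size is near the common share. These counts, and those of the lists that follow, do not show that the genes are unchanged or set apart. Mcl1, a survival factor of neutrophils, was at 4538 against 3650 CPM and at 4840 against 3834 CPM. Bnip3l, a relative of Bnip3 in mitochondrial removal, was the only 1 of 12 survival genes higher in both, at 355 against 184 CPM and at 385 against 206 CPM. Of 14 genes of blood-type mature neutrophils, Cd177 and Prok2 were higher and Pglyrp1 lower.

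Itga4, Pglyrp1, Lsp1 and Steap4 were among the genes lower in hypoxic neutrophils of both libraries. Itga4, the alpha-4 integrin that binds VCAM-1, was at 55.7 against 142 CPM, a ratio of 0.393 (0.315 to 0.491), and at 46.2 against 120 CPM, a ratio of 0.385 (0.312 to 0.473). Pglyrp1, a granule protein that binds peptidoglycan, was at 207 against 407 CPM and at 204 against 419 CPM. Lsp1, an actin-binding protein of leukocytes, was at 254 against 452 CPM and at 216 against 500 CPM. Steap4, a metalloreductase, was at 125 against 256 CPM and at 115 against 235 CPM. Cxcr4, the receptor that retains neutrophils in marrow, was at 604 against 1002 CPM, a ratio of 0.60, and at 779 against 1026 CPM, a ratio of 0.76, so it passed in the vehicle library only.

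Cebpd, a transcription factor of the C/EBP family, was lower as well, at 128 against 268 CPM and at 132 against 238 CPM. Tsc22d3, a glucocorticoid-induced regulator, was at 204 against 377 CPM and at 191 against 424 CPM. Of 13 immediate early genes compared, Fos and Fosb were lower and none was higher, beside 3.98% of all 2134 genes lower and 4.22% higher. Fos was at 2001 against 3121 CPM and at 2290 against 3780 CPM. Tnfaip2, a TNF-induced gene, was at 1055 against 1754 CPM and at 877 against 1525 CPM, and Txnip, an inhibitor of glucose uptake chosen after its values were seen, at 184 against 409 CPM and at 178 against 312 CPM. Ccpg1, Pi16, Ripor2 and Myadm were lower too, with ratios between 0.401 and 0.555.

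**Figure D3:**
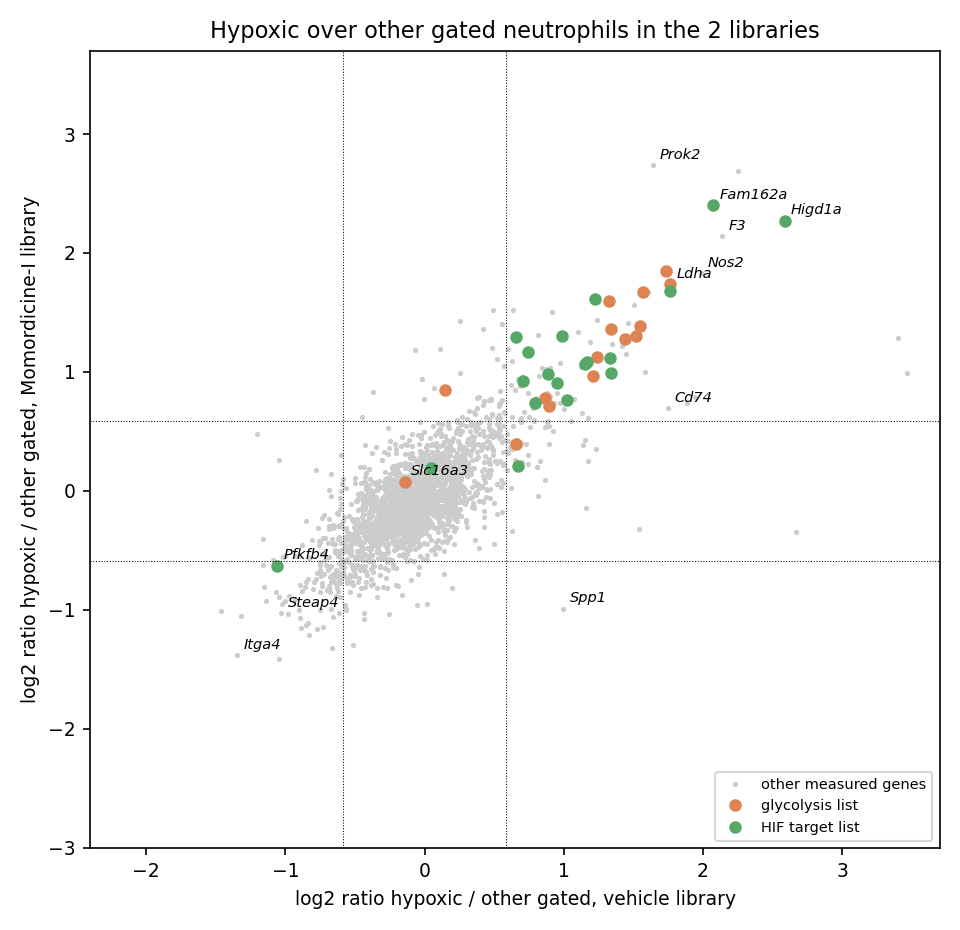
Log2 ratio of hypoxic over other gated neutrophils in the vehicle library (x axis) and the Momordicine-I library (y axis), 1 point per gene of the 2134 compared. Glycolysis genes are in orange, HIF targets outside the glycolysis list in green, and dotted lines mark 1.5-fold. Most coloured points lie in the upper right corner, Pfkfb4 lies at the lower left, and Spp1 is high in 1 library and low in the other.

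The 2 libraries gave overlapping calls. Of 143 genes higher in the vehicle and 144 higher in the Momordicine-I library, 90 were shared, which is 62.9% of the former and 62.5% of the latter. Of 169 and 210 lower genes, 85 were shared, 50.3% and 40.5%. In the vehicle library 6.46% of 2213 genes were higher and 7.64% lower, and in the Momordicine-I library 6.2% of 2324 were higher and 9.04% lower. Across the 2134 genes the log2 ratios correlated with Pearson's r of 0.761 and Spearman's rho of 0.698, a description across genes that share cells and depth. Only Spp1, 0.0469% of the genes, passed 1.5-fold in opposite directions, and its vehicle log2 ratio was -0.30 with Egln3 left out of the gate.

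The level of several genes was also read along the amount of hypoxia-gene transcripts. Gated neutrophils were thinned to 3000 UMIs and sorted by thinned hypoxia-gene UMIs into cells with 0, 1 or 2, 3 to 5, 6 to 9, and 10 or more. In the vehicle library Ldha ran 210, 477, 886, 1052 and 1889 CPM across these classes, and in the Momordicine-I library 324, 466, 919, 1119 and 2078 CPM. Hmox1 was flat at first, at 345, 341 and 315 CPM, and then stood at 567 and 961 CPM in the vehicle library, with 249, 346, 350, 514 and 956 CPM in the other. Nos2 ran 26.2, 36.0, 49.1, 99.2 and 189 CPM in the vehicle and 22.2, 63.8, 91.8, 189 and 220 CPM in the Momordicine-I library. Not every higher gene rose class by class. In the vehicle library Fnip2 ran 56.2, 57.6, 59.4, 71.6 and 178 CPM, and Prok2 ran 41.2, 36.0, 137, 33.1 and 225 CPM. The classes held between 89 and 209 cells each.

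Other genes ran downward over the same classes. Itga4 ran 191, 106, 54.3, 27.5 and 23.2 CPM in the vehicle library and 138, 124, 67.4, 33.8 and 27.6 CPM in the Momordicine-I library. Pglyrp1 ran from 509 to 114 CPM and from 473 to 128 CPM between the lowest and the highest class. Il1b held at 13247, 14439 and 14220 CPM before 11493 and 9217 CPM in the vehicle library, and in the other it ran from 17220 to 10377 CPM. Cxcr4 ran from 993 to 510 CPM and from 1091 to 576 CPM. The classes count UMIs after thinning, so they do not line up with the threshold of 4 UMIs at full depth.

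**Figure D4:**
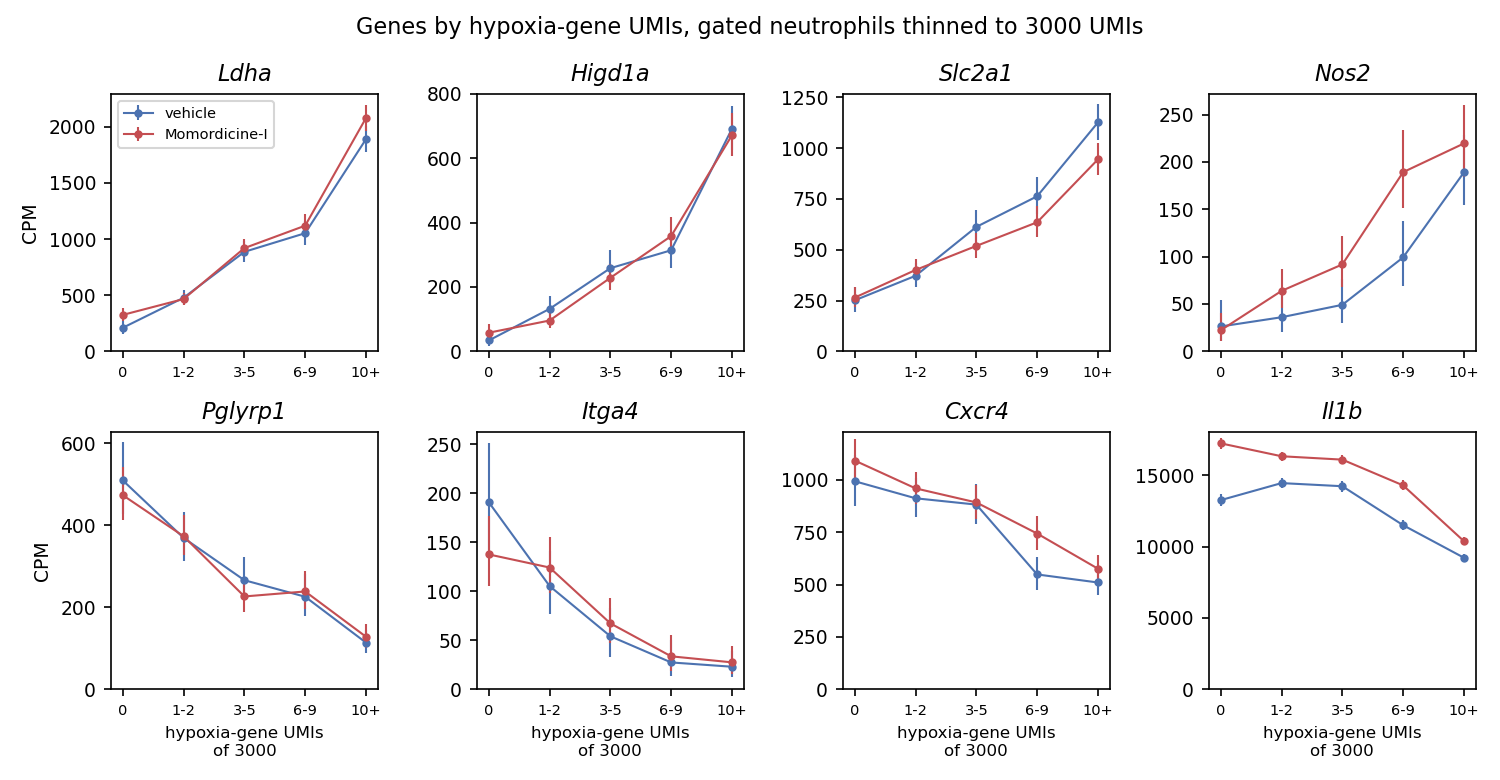
CPM of 8 genes on linear axes from 0 (y axes) in gated neutrophils thinned to 3000 UMIs, by class of thinned hypoxia-gene UMIs (x axis), vehicle in blue and Momordicine-I in red, with 95% counting intervals. Ldha runs up from 210 and 324 CPM to 1889 and 2078 CPM and Itga4 down from 191 and 138 CPM to 23.2 and 27.6 CPM.

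The letters bound by HIF were counted in promoters of the genes that differed, here over all bases from 250 before to 50 after each start. Either motif, ACGTG or GCGTG, occurred in 59 of 71 higher genes that have an entry in the promoter table, 83.1%. It occurred in 44 of 68 lower genes, 64.7%, in 71.8% of 1705 compared genes and in 46.7% of all 27025 genes in the table. ACGTG alone occurred in 49.3% of the higher genes, 22.1% of the lower genes, 34.9% of compared genes and 21.8% of all. No test was made of these shares, and they draw on genes chosen through the same contrast. All 4 gate genes held ACGTG, on 1 strand or the other.

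Hypoxic neutrophils were set beside neutrophils with Siglecf, a lectin gene of some tumour neutrophils, of which the libraries held 156 and 281. The rule separates the sets both by Siglecf and by hypoxia-gene UMIs, so these values are descriptions. Of the Siglecf cells 73.1% and 69.8% also reached 4 hypoxia-gene UMIs, and their median depths were 10518 and 8233 UMIs. They were not cleared of cells with Ly6g and Mmp8, Saa3 or interferon genes, and their macrophage markers summed to 1501 and 1556 CPM. The part of depth and of such cells in the values was not tested. Of 19 HIF targets compared, 5 were higher in the hypoxic set in both libraries and none lower, against 1.49% of 2217 genes higher and 4.29% lower. They were Slc2a1, Higd1a, Ddit4, Pfkfb3 and Fam162a. Nos2 was at 122 CPM in hypoxic and 64.1 CPM in Siglecf cells of the vehicle library, and at 147 and 76.3 CPM in the Momordicine-I library. Cxcl3 was at 8238 against 4639 CPM and at 6143 against 3234 CPM. On the other side, 5 of 23 nuclear genes of oxidative phosphorylation were lower in the hypoxic set, among them Cox6c and Uqcrb, and the protease gene Mmp9 was at 634 against 1163 CPM and at 512 against 973 CPM.

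Against the 314 and 685 neutrophils with at least 2 UMIs of Ly6g, a neutrophil surface gene, and Mmp8, a granule collagenase, 8 of 16 blood-type genes compared were lower in the hypoxic set of both libraries, against 2.5% of 2118 genes lower and 0.378% higher. The rule itself separates the sets by Ly6g and Mmp8, so these values are descriptions too. Of the comparison cells 67.8% and 62.0% also reached 4 hypoxia-gene UMIs, and their median depths were 8048 and 6121 UMIs. Pglyrp1 was at 207 against 490 CPM and at 204 against 368 CPM, and the chitinase-like gene Chil3 at 116 against 266 CPM and at 330 against 909 CPM. Of 20 HIF targets, P4ha1, Higd1a and Fam162a were higher. Higd1a was at 403 against 237 CPM and at 416 against 234 CPM. Nos2 hardly differed, at 122 against 129 CPM and at 147 against 116 CPM. Of 9 interferon response genes 6 were lower, but the rule had removed cells rich in Ifit1, Ifit3 and Rsad2 from the hypoxic set and not from this one.

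Hypoxic neutrophils made up 15.8% (14.6 to 17.1) of filtered vehicle cells and 14.9% (13.8 to 15.96) of filtered Momordicine-I cells, a ratio of 0.941 (0.837 to 1.06). Among cells that passed the neutrophil gate alone they were 32.1% of 1656 and 27.7% of 2347, a ratio of 0.862 (0.768 to 0.969). The exclusion gates act on this share. Of the neutrophil-gated cells with at least 4 hypoxia-gene UMIs, 1157 and 1457 in number, the interferon gate removed 295 and 191 and the gate on Ly6g and Mmp8 removed 279 and 493. Before those gates, the cells with at least 4 hypoxia-gene UMIs were 69.9% and 62.1% of neutrophil-gated cells, a ratio of 0.889 (0.822 to 0.961). Median depth was also lower in the Momordicine-I library, and its part in these ratios was not tested.

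Within hypoxic neutrophils no HIF target or glycolysis gene compared passed 1.5-fold between the treatments. The lists held 21 and 16 compared genes, and over all 2205 genes only 1.04% were higher and 1.32% lower with Momordicine-I. Both sets were admitted by the same hypoxia-gene threshold, so likeness in these genes was in part set by the rule. Nothing about the treatment is read from it. The median log2 ratio was 0.12 for HIF targets and 0.06 for glycolysis, against 0.02 over all genes. Ldha had a ratio of 1.06 (1.02 to 1.11), Higd1a 1.03 (0.958 to 1.11), Hmox1 0.988 (0.930 to 1.05) and Nos2 1.21 (1.06 to 1.38). The larger values in the lists were Fam162a at 1.32 (1.21 to 1.46) and Tpi1 at 1.30 (1.23 to 1.38).

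Interferon response genes were lower with Momordicine-I. Of 7 compared, 5 were lower and none higher, beside 1.32% of all 2205 genes lower and 1.04% higher, with a median log2 ratio of -0.69. Slfn4, a myeloid schlafen, was at 537 CPM in vehicle and 325 CPM in Momordicine-I hypoxic neutrophils, a ratio of 0.606 (0.563 to 0.653), and was seen in 76.3% and 61.4% of cells. Ifi27l2a was at 258 and 136 CPM, a ratio of 0.527 (0.471 to 0.589). Slfn5 was at 72.1 and 44.6 CPM, Rtp4 at 107 and 68.4 CPM, and Isg20 at 114 and 69.2 CPM. Isg15, a ubiquitin-like protein, was at 209 and 145 CPM, a ratio of 0.69 that missed 1.5-fold by a little. The other gated neutrophils showed 5 of 10 interferon genes lower, against 3.05% of 2327 genes lower and 3.44% higher, with Slfn4 at a ratio of 0.517. The interferon gate had removed more vehicle than Momordicine-I cells, and its part in these values was not tested.

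Spp1, osteopontin, a secreted matrix protein, was at 300 CPM in vehicle and 99.0 CPM in Momordicine-I hypoxic neutrophils, a ratio of 0.330 (0.292 to 0.372). It was found in 25.4% and 16.8% of the cells, and the highest single cell held 10.9% and 7.18% of its UMIs. In other gated neutrophils the order was the opposite, with 150 CPM in vehicle and 197 CPM in Momordicine-I. Thbs1, thrombospondin 1, was at 2338 and 1523 CPM in hypoxic cells, a ratio of 0.65, and at 1438 and 1289 CPM in the others. Il1a was at 239 and 155 CPM.

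Several genes were higher with Momordicine-I in hypoxic neutrophils and were spread over many cells. The histone genes Hist1h4i and Hist1h1c were at 71.2 and 194 CPM and at 436 and 733 CPM in vehicle and Momordicine-I, ratios of 2.72 and 1.68. Asprv1, a retroviral-like protease, was at 419 and 652 CPM and was found in 50.8% and 62.2% of cells. The prion protein gene Prnp was at 84.0 and 144 CPM, and Trf, transferrin, at 225 and 351 CPM. H2-Q4, a class I histocompatibility gene, was at 76.0 and 135 CPM. The transcription factor Klf4 was at 42.0 and 75.5 CPM, and Apoe, an apolipoprotein that macrophages also make, at 56.6 and 98.4 CPM. Near-identical family members of the histone and class I genes may share reads.

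Some differences rested on very few cells. A single cell held at least 25% of a gene's UMIs in at least 1 library in 4 of the 23 genes higher and 9 of the 29 genes lower with Momordicine-I. The granule genes Camp, Ngp and Ltf were at 217, 421 and 112 CPM in vehicle and at 0.273, 8.20 and 21.1 CPM in Momordicine-I. In vehicle 1 cell held 99.2% of the Camp UMIs, 97.9% of the Ngp UMIs and 85.3% of the Ltf UMIs. Without each gene's highest cell the ratios of Ngp and Ltf were 0.703 and 1.22, and Camp was left with 6 and 0 UMIs. Ccl24 was carried by 1 cell in each library, with 96.1% and 97.2% of its UMIs. Of the cystatin-like genes, Cstdc5 went from a ratio of 0.408 to 1.07 without its highest cell, while Stfa2 went from 0.328 to 0.410.

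Among chemokine and myeloid genes, Ccl2, which attracts monocytes, was at 32.2 and 108 CPM, a ratio of 3.35 (2.70 to 4.18) that was 2.72 without its highest cells. Chil3 was at 116 and 330 CPM, a ratio of 2.85, and 1 vehicle cell held 52.8% of its UMIs. Without the highest cells its ratio was 5.11 (4.36 to 6.02), and it was found in 9.40% and 25.8% of cells. In other gated neutrophils Chil3 had a ratio of 7.03. Arg1 had a ratio of 2.08, and 1.52 (1.16 to 2.01) without its highest cells.

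Class II histocompatibility genes were lower with Momordicine-I, and a few vehicle cells held most of them. Cd74, the invariant chain, had a ratio of 0.440, and the ratios were 0.339 for H2-Ab1, 0.372 for H2-Eb1 and 0.373 for H2-Aa. The 4 genes summed to 915 CPM in vehicle and 357 CPM in Momordicine-I hypoxic neutrophils. In vehicle, 6 of 532 cells with at least 0.5% class II UMIs held 77.9% of these UMIs, and in Momordicine-I 1 of 650 held 44.0%. Without those cells the sums were 209 and 201 CPM, close to 233 and 201 CPM in other gated neutrophils, also without such cells. Dendritic cell markers as a list were at 927 and 360 CPM in hypoxic cells and at 263 and 229 CPM in the others. In hypoxic cells 10 and 9 of its 10 genes were detected, with Zbtb46 at 0 in Momordicine-I. The list includes class II genes and held 3112 and 1318 UMIs there, beside 3071 and 1306 for the 4 class II genes. It therefore had to move with them, and nothing further is read from it. B cell markers were at 241 and 31.4 CPM, with Ebf1 at 0 in the Momordicine-I cells, and at 363 and 34.6 CPM in the others. Of that list, the immunoglobulin gene Igkc was at 122 and 3.83 CPM in hypoxic cells and at 182 and 3.96 CPM in the others, and Ighm at 109 and 25.7 CPM and at 162 and 26.6 CPM. Both count among the 29 lower genes, and no cell held more than 7.14% of either in the hypoxic cells of a library. The B cell list was lower with Momordicine-I in other cell sets as well. It was at 175 and 19.9 CPM in the neutrophils with Ly6g and Mmp8 and at 174 and 17.5 CPM in those with Siglecf. In Cd79a cells it was at 83823 and 11768 CPM, and 1 vehicle cell there had 56.4% of its UMIs in the list. The cause of the difference was not tested.

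**Figure D5:**
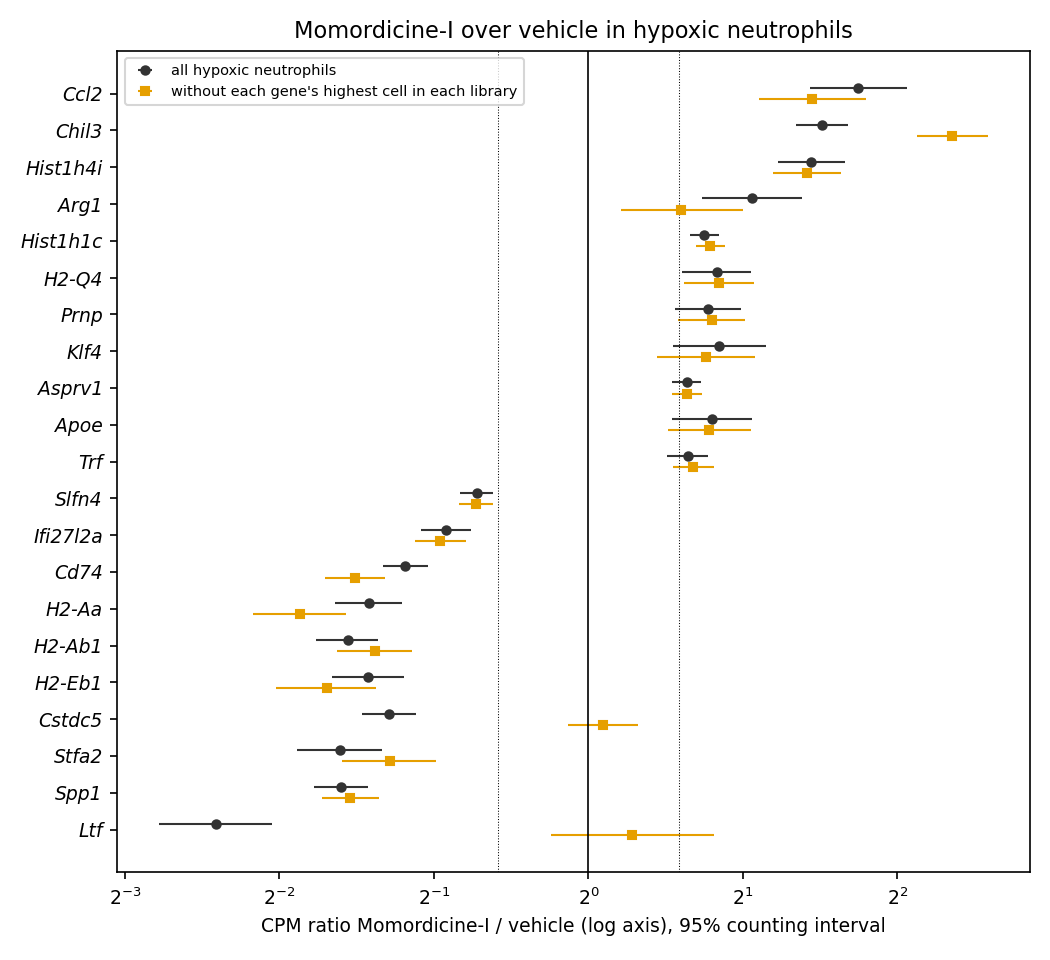
Ratio of Momordicine-I over vehicle CPM in hypoxic neutrophils on a log axis (x axis) for named genes (y axis), with 95% counting intervals, for all cells (dark circles) and without each gene's highest cell in each library (orange squares), dotted lines marking 1.5-fold. Camp, Ngp and Ccl24, carried by single cells, are not drawn; Ltf and Cstdc5 cross to 1.22 and 1.07 without their highest cells, while Slfn4 and Spp1 stay near 0.604 and 0.344.

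In the other gated neutrophils, which come from the same 2 libraries, 3.44% of 2327 genes were higher and 3.05% lower with Momordicine-I. Of the 23 genes higher in hypoxic cells, 19 could be compared there: 9 were higher, none lower and 10 within 1.5-fold. Of the 29 lower genes, 19 could be compared: 10 were lower, none higher and 9 within 1.5-fold. Among the 9 higher genes, Prnp was at 59.4 and 196 CPM, Trf at 95.8 and 276 CPM, and Hist1h4i at 87.2 and 200 CPM in vehicle and Momordicine-I.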

How the data were processed

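The series holds 2 single-cell libraries, 1 per group. The deposited counts are whole UMIs per gene and barcode, not normalized. Per the submitters' processing notes they were made with Cell Ranger 6.0.2 and mm10, and the labels' protocols name the 10x Genomics 3' kit. Filters and any doublet removal before deposit are not given in the sources used here.

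Barcodes with at least 200 genes and at most 10% mitochondrial UMIs were kept. The members and gene lists were chosen with earlier results of these data known. UMIs were summed per library and cell set and divided by the set's total (CPM, per 1000000). Ratios carry exact binomial 95% intervals, shares exact Clopper-Pearson intervals, and neither covers variation between mice. The intervals of gene ratios do not cover variation among cells either. Genes needed a mean of 50 CPM over the sets compared and 20 UMIs; 1.5-fold was called higher or lower, and no p-value was computed. Genes used by the rule were left out of counts. Cells were thinned to 2000 or 3000 UMIs where shares or classes were compared. A doublet caller (Scrublet in scanpy 1.11.5) marked 2 and 1 cells at its automatic threshold, so it did not work here and no doublets were removed, except in an alternative that left out the 98 and 164 highest scores.

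Named genes are the 15 higher and 12 lower in hypoxic cells, and 12 in each direction with Momordicine-I, whose interval bound lay farthest from 1, with the gate genes, the markers and up to 4 genes per list. Immunoglobulin, T cell receptor, mitochondrial, ribosomal protein, haemoglobin and predicted genes were not named by rank but stayed in the counts; Igkc and Ighm were added after their values were seen. 1 gene that this rule names is not reported here. Median log2 ratios of lists stand beside those of all genes. Python 3.11.15, numpy 2.4.6, scipy 1.17.1, pandas 2.3.3 and matplotlib 3.10.9 were used. The computation was tested on simulated counts drawn independently, which hold no variation among cells. Alternatives covered gates, depth, filters and single cells.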

Additional observations from a re-analysis of the deposited data

Results flagged for a closer look

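Spp1 moved in opposite directions between the libraries. Its log2 ratio of hypoxic over other gated neutrophils was 1.00 in the vehicle library and -0.99 in the Momordicine-I library, a difference of -1.99. With 1 library per group this difference was not tested. In cells thinned to 3000 UMIs, Spp1 ran 74.9, 173, 279, 361 and 271 CPM across the classes of hypoxia-gene UMIs in vehicle, and 233, 126, 95.5, 69.8 and 101 CPM in Momordicine-I. With Egln3 left out of the gate, the vehicle value was -0.30.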

How the results depend on the processing

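No paired analysis was possible because each group had 1 library. Under 19 settings, the ratio of hypoxic neutrophil shares, Momordicine-I over vehicle, ran from 0.902 to 1.02 of all filtered cells and from 0.807 to 0.900 of neutrophil-gated cells. The median log2 ratio of HIF targets ran from 0.89 to 1.17 in vehicle and from 0.98 to 1.24 in Momordicine-I for hypoxic over other cells, and from 0.08 to 0.14 for the treatment. The counts of higher and lower genes, 90 and 85 for hypoxic cells and 23 and 29 for the treatment, became 147, 188, 93 and 64 with a mean CPM of at least 20, and 259, 465, 837 and 450 with no filter; more genes of low counts were then compared. Of 4238 alternative values of single named genes, 27 took the opposite sign to a value past 1.5-fold and are given below. A further 98 changed sign from a value inside 1.5-fold, at most 0.27 in size on the log2 scale. 2 alternatives were chosen after seeing the data: cells of 3000 to 10000 UMIs, where the genes higher with Momordicine-I numbered 45, and leaving out cells with at least 0.5% class II UMIs. The motif share was 49.3% with ACGTG alone.

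Of the log2 ratios past 1.5-fold that reversed, those of class II genes in hypoxic over other cells are given for vehicle and then Momordicine-I. With hypoxia genes thinned, H2-Ab1 was at -2.56 and -0.38, H2-Aa at -2.18 and -1.45 and Cd74 at -2.62 and -1.38. With the mean of the cells' CPM, H2-Ab1 was at -0.31 and -0.022 and H2-Aa at -0.20 and -0.51, and Cd74 was at -0.27 in Momordicine-I. Without class II cells, H2-Aa was at -0.085 and -0.23, Cd74 at -0.17 and -0.19, and H2-Ab1 at -0.089 in vehicle. Without each gene's highest cell, H2-Aa and Cd74 were at -0.20 and -0.11 in Momordicine-I. Spp1 was at -0.30 in vehicle with Egln3 left out of the gate. For Momordicine-I over vehicle in hypoxic neutrophils, Cstdc5 was at 0.23 with the mean of the cells' CPM, 0.10 without its highest cell and 0.26 in the depth band. Ltf was at 0.28 without its highest cell and 0.18 in the depth band, H2-Ab1 at 0.055 in the depth band and 0.17 without class II cells, and Ccl24 at -4.22 in the depth band. Beyond the cells and genes that each setting itself leaves out, the cause was not tested.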

Other observations

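Bcl2a1b, a survival factor of neutrophils, was at 449 CPM in vehicle and 328 CPM in Momordicine-I hypoxic neutrophils, and at 455 and 170 CPM in other gated neutrophils. The ratio was 0.73 in the former and 0.37 in the latter, and the difference between them was not tested. Its near-identical copies may share reads with it. Nos2 and Hmox1 were detected together in 16.2% of vehicle and 18.9% of Momordicine-I hypoxic neutrophils at full depth. At least 4 hypoxia-gene UMIs were also found in 66.0% and 56.3% of cells with C1q transcripts, genes that macrophages express, and in 27.6% and 28.7% of Cd3e cells, at median depths of 13507 and 11418 UMIs and of 7809 and 6900 UMIs.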
